A study of Mus musculus with 12 samples.

Results

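The genes described here are 10 that encode structural proteins of the basement membrane: the collagen IV chains Col4a1 and Col4a2, the multiplexin collagens Col15a1 and Col18a1, the laminin chains Lama2, Lama4, Lamb1 and Lamc1, and the nidogens Nid1 and Nid2. They were taken by symbol from a table of 23358 gene rows, and all 10 were found, each once. The cells are mesenchymal stem cells from mouse bone marrow, a stromal type that can turn into bone or fat cells, and their RNA was sequenced in 12 libraries, 3 in each of 4 groups. Ctrl cells were not treated, CK cells received CK666, which inhibits the Arp2/3 complex, the nucleator of branched actin filaments, CytoD cells received cytochalasin D, which caps actin filaments, and CytoD+CK cells received both. Cells of every group were grown in medium with 10% serum and plated at 10000 cells per square centimetre 1 day before treatment, and the treatments lasted 24 h. The sources used here give no concentrations and no strain, age or sex of the mice. Nothing says that the replicates of a group came from separate animals or cultures, so p-values measure only how far these libraries spread, and that spread may be technical.

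A basement membrane is a thin sheet of matrix on which epithelia and endothelia rest and which wraps muscle, nerve and fat cells. It has a network of laminins, which are trimers of an alpha, a beta and a gamma chain, and a network of collagen IV, whose common form joins a pair of Col4a1 chains with a Col4a2 chain. Nidogens bind laminin to collagen IV, and the multiplexins, collagens XV and XVIII, carry glycosaminoglycan chains and lie at the border with the interstitial matrix. Fat cells are each wrapped in a basement membrane.

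Library totals ran from 48930210 to 69269716 counts. Levels are CPM, counts relative to the TMM-scaled library total, given per kilobase of the length column where genes are compared. Changes are log2 differences with their SE from edgeR's quasi-likelihood test over 13534 genes, with p-values adjusted over all of them in each comparison (Benjamini and Hochberg), and a gene is called at an adjusted p under 0.05. Of the 10 genes, 9 passed the filter on low counts and were tested, and Lama4 did not. The third CK library stood apart: its median absolute log2 difference from the first and second CK libraries was 0.289 and 0.276, against 0.126 between those, and longer genes read lower in it (r across genes of 0.378 and 0.465 between log2 length and the first or second library minus the third, and genes are not independent replicates). The basement membrane genes are long, 4884 to 9713 bases in the length column. The 2524 tested genes at least as long as the shortest of them had a median difference of -0.40 in that library from the mean of the other CK libraries, against 0.01 for all tested genes. CK values of the basement membrane genes are given with and without that library where a call against Ctrl or its direction moves.

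In untreated cells, per kilobase, Col4a1 led with 341.5 ± 3.93 CPM (SD, n = 3), followed by Col4a2 with 277 ± 7.71 and Nid1 with 274 ± 15.0. The libraries of Col4a2 and Nid1 overlapped, so these neighbours do not differ beyond their spread. Lamb1 (114 ± 2.16), Nid2 (103 ± 2.17) and Lamc1 (82.5 ± 2.44) formed the next tier, with no overlap between any pair of them. Col18a1 was at 4.53 ± 0.399 and Col15a1 at 1.21 ± 0.108. The alpha chains Lama2 and Lama4 were at 0.0290 ± 0.00512 and 0.0111 ± 0.0106, and their ranges did not overlap, although Lama4 had 0, 6 and 4 counts, at or near the 3 counts that a count of 0 allows.

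**Figure D1:**
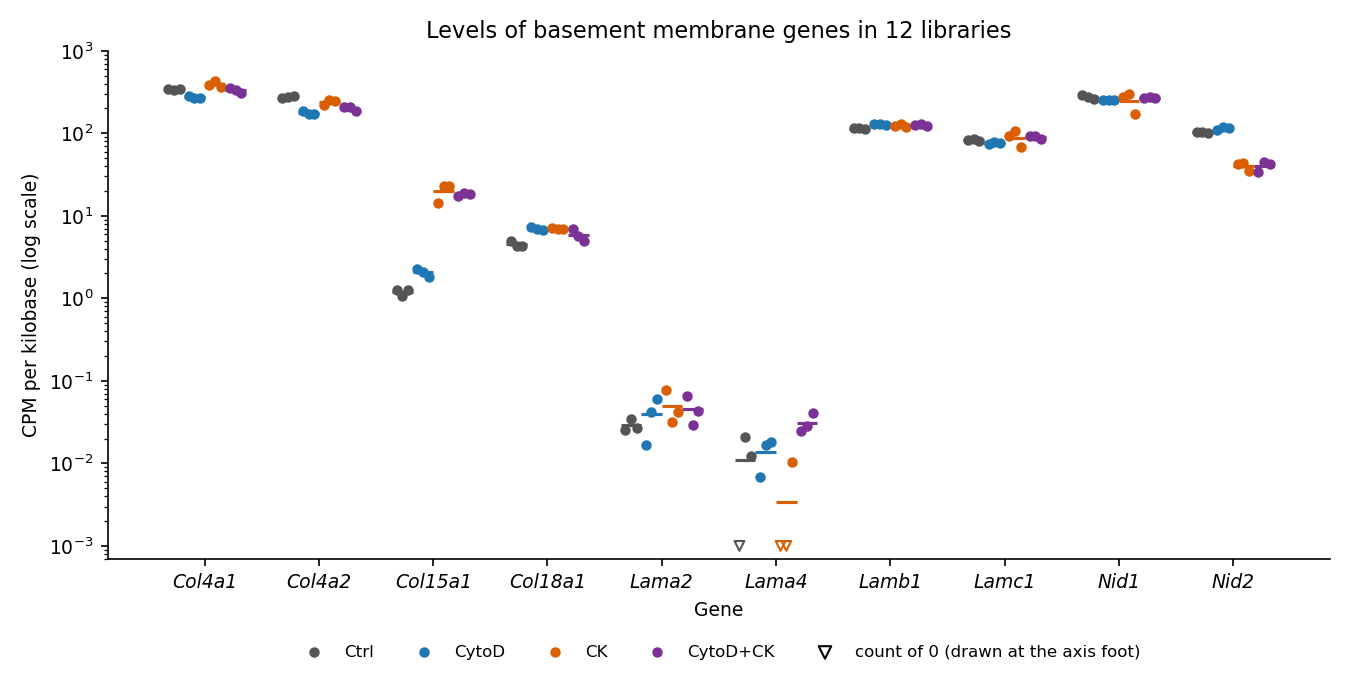
Level of each of the 10 genes in each of the 12 libraries, as CPM per kilobase on a log axis. Points are libraries, horizontal bars are means over 3 libraries, and open triangles at the foot mark libraries with a count of 0. Col15a1 and Nid2 separate the CK and CytoD+CK libraries from the Ctrl and CytoD libraries, and Lama2 and Lama4 lie far below the other genes in every group.

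Against untreated cells, CytoD raised 3 and lowered 2 of the 9 tested genes, where 37.9% of all tested genes were called, 19.1% higher and 18.9% lower. CK likewise raised 3 and lowered 2, where 41.1% of all were called, 22.5% higher and 18.7% lower. CytoD+CK raised 2 and lowered 2, where 46% were called, 24.4% higher and 21.6% lower. CK against CytoD had 3 higher and 1 lower (39.8% of all called, 22.9% higher and 16.8% lower), and CytoD+CK against CytoD had 2 higher and 1 lower (30.1% called, 15.8% higher and 14.3% lower). Without the third CK library, 6 of the 9 genes were called with CytoD (50.4% of all genes in that fit), 6 with CK (42.4%) and 5 with CytoD+CK against Ctrl (56.3%). CytoD+CK against CytoD then had 5 in place of 3, and 42.2% of all genes in place of 30.1%. Without Ctrl replicate 2 or 3 the number called with CK was 3. With all libraries, the counts for these few genes lie within 2 genes of the share over all genes, and nothing particular to the set is read from them. The median log2 change of the 9 was 0.15, 0.11 and 0.13 in the 3 comparisons, against 0.02, 0.03 and 0.04 over all tested genes. The genes of the set moved in opposite directions. In bulk RNA, fewer cells that express a gene and less of its RNA per cell cannot be told apart.

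**Figure D2:**
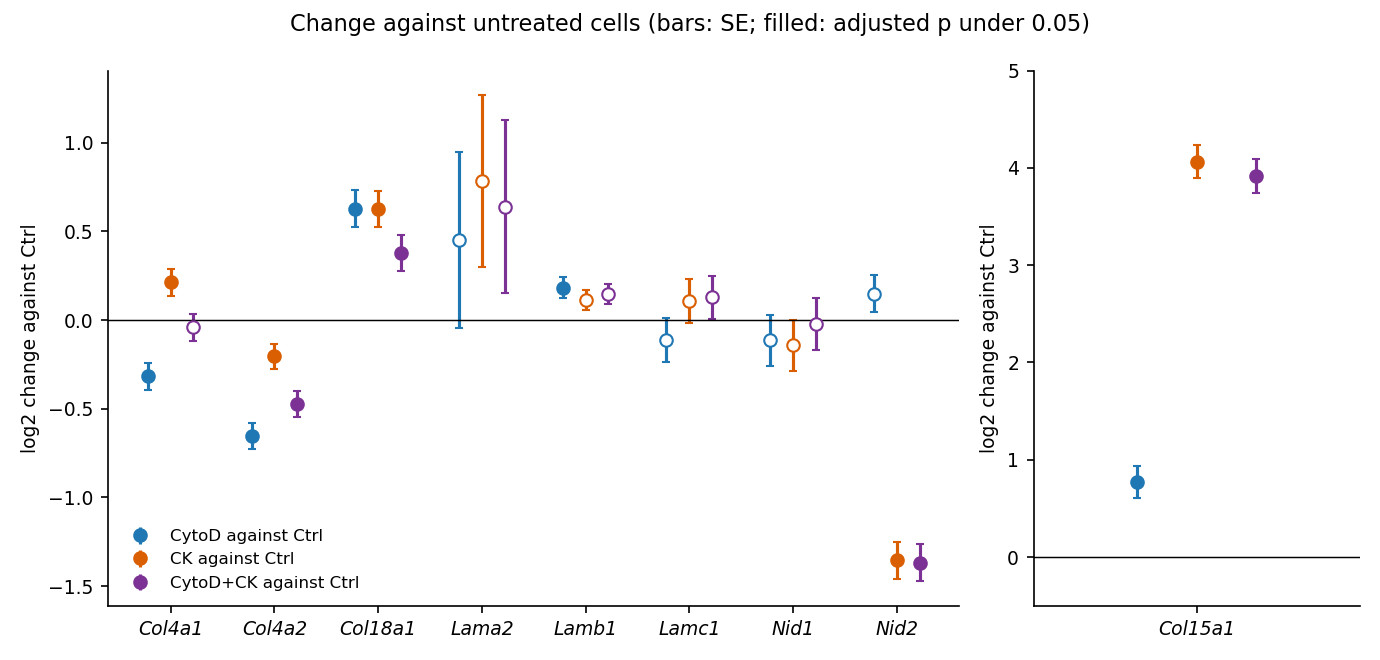
Log2 change of the 9 tested genes against Ctrl with CytoD, CK and CytoD+CK; bars are SE, filled points have an adjusted p under 0.05. The right panel gives Col15a1 on its own axis, where CK and CytoD+CK reach 4.06 and 3.91; on the left, Nid2 falls to -1.35 and -1.37 in the same comparisons.

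Col4a1 and Col4a2, whose products form the collagen IV network, both fell with CytoD. Col4a1 levels per kilobase were 346, 338 and 340.5 CPM in Ctrl, 284.5, 268.5 and 268.5 in CytoD, 388, 436 and 363.5 in CK, and 354, 330.0 and 312 in CytoD+CK. All 3 CytoD libraries lay below every other library, and all 3 CK libraries above every Ctrl library. Such separation was common: against Ctrl, groups did not overlap for 61.6% of all tested genes with CytoD, 50.1% with CK and 63.4% with CytoD+CK. The share was 53% for CytoD+CK against CytoD, 27.6% for CytoD+CK against CK and 49.8% for CK against CytoD. With CytoD the change was -0.32 (SE 0.08, adjusted p = 0.00501), and CK was higher than CytoD by 0.53 (SE 0.08, adjusted p = 0.000174). CytoD+CK differed from Ctrl by -0.04 (SE 0.08, adjusted p = 0.687) and was above CytoD by 0.28 (SE 0.08, adjusted p = 0.014) and did not pass the threshold without CytoD replicate 2, CytoD replicate 3 or CytoD+CK replicate 1 (adjusted p = 0.0505 to 0.0524).

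The rise of Col4a1 with CK was small, 0.21 (SE 0.08, adjusted p = 0.0374), and was not called in 12 of 21 alternatives. With RLE size factors it was 0.18 (adjusted p = 0.0748) and in DESeq2 0.18 (adjusted p = 0.0554). It was also lost when any 1 of the 3 Ctrl libraries, CK replicate 2, CytoD replicate 1 or CytoD+CK replicate 2 was left out, with adjusted p-values from 0.0504 to 0.13. Without the third CK library it was 0.23 (adjusted p = 0.0124), and with an offset for gene length 0.36 (adjusted p = 0.00177).

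Col4a2 was at 270.1, 275 and 285 CPM per kilobase in Ctrl, 184, 171 and 173 in CytoD, 222, 254.5 and 244 in CK, and 208.5, 205 and 184 in CytoD+CK. Every treated library lay below every Ctrl library, and every CytoD library below every CK library. CytoD lowered it by a log2 change of -0.65 (SE 0.07, adjusted p = 2.07e-05) and CytoD+CK by -0.47 (SE 0.07, adjusted p = 0.000137). With CK the change was -0.21 (SE 0.07, adjusted p = 0.0354), which shrank to -0.05 (adjusted p = 0.718) with the gene length offset and was lost without Ctrl replicate 2, Ctrl replicate 3 or CK replicate 1 (adjusted p = 0.0837 to 0.118). CytoD+CK was above CytoD by 0.18 (SE 0.07, adjusted p = 0.0756), which passed the threshold only without CytoD+CK replicate 3 (0.24, adjusted p = 0.0402).

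Adding CytoD to CK lowered both chains, Col4a1 by a change of -0.25 (SE 0.08, adjusted p = 0.0454) and Col4a2 by -0.27 (SE 0.07, adjusted p = 0.0298), and these were the only 2 of the 9 genes called between CytoD+CK and CK, where 11.6% of all genes were called, 4.43% higher and 7.17% lower. The Col4a1 call was lost in 11 of 21 alternatives, among them leaving out any 1 library except CK replicate 3 and CytoD+CK replicate 1 (adjusted p = 0.0588 to 0.173). The Col4a2 call was lost without Ctrl replicate 2, Ctrl replicate 3, CK replicate 2, CytoD+CK replicate 2 or CytoD+CK replicate 3 (adjusted p = 0.0518 to 0.134). Fitted on these 2 groups alone, neither was called (adjusted p = 0.236 and 0.199).

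The unequal changes of the chains can also be read as their ratio in each library. Per kilobase, the Col4a1 level was 1.28, 1.23 and 1.19 times the Col4a2 level in the 3 Ctrl libraries, a mean of 1.23 ± 0.0433 (SD, n = 3). It was 1.56 ± 0.0110 in CytoD, 1.65 ± 0.141 in CK and 1.67 ± 0.0501 in CytoD+CK. No treated library came down to the Ctrl range: the lowest, at 1.49, was CK replicate 3, and without it the CK mean was 1.73. The ratio was not tested, since 3 libraries against 3 allow no exact p below 0.1, and it is independent of library scaling because both genes share a library's factor.

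Col4a1 and Col4a2 are neighbours that are read in opposite directions from a common start region on chromosome 8. The Col4a1 row spans chr8:11198423-11312826 and the Col4a2 row chr8:11312829-11449287, so that the rows lie 3 bases apart. GENCODE places Col4a1 on the minus strand and Col4a2 on the plus strand. It starts Col4a2 at chr8:11312805, within the Col4a1 span, so by that annotation the starts overlap. Their RefSeq promoter windows (GRCm38.p6, 250 bases before to 50 after a start, 5′ to 3′ on each gene's own strand) are shown because they share 78 bases, chr8:11312777-11312854, in capitals in both, while the RNAs of the genes shifted in ratio. The Col15a1 window (chr4:47207762-47208061, plus strand) is shown beside them because this gene had the largest change, and its capitals mark CpG dinucleotides.
Col4a1, chr8:11312777-11313076, minus strand: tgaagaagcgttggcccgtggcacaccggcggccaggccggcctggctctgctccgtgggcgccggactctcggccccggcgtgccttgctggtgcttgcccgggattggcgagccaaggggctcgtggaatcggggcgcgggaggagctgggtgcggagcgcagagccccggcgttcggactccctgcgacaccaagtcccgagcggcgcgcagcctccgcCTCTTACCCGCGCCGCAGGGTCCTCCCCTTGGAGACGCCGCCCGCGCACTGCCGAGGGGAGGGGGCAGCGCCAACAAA
Col4a2, chr8:11312555-11312854, plus strand: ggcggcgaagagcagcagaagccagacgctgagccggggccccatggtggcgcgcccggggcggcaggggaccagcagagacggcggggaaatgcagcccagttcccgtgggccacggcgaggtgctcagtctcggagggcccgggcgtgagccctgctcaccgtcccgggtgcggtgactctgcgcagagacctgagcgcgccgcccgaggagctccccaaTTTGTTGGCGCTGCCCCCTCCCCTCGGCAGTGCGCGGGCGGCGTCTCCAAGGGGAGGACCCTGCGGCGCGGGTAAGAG
Col15a1, chr4:47207762-47208061, plus strand: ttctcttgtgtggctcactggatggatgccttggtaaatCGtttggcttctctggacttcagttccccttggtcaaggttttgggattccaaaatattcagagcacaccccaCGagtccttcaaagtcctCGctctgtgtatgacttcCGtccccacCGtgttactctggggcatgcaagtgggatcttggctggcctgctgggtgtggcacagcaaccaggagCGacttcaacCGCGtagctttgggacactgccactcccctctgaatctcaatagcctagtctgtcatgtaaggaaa

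The collagen IV windows were rich in G and C, 74.0% for Col4a1 and 73.7% for Col4a2, with 37 and 33 CpG. The Col15a1 window held 52.3% and 8 CpG, close to the medians of 52.7% and 7 over 32851 promoters. Windows for 7 of the 10 genes were in the RefSeq table, which has none here for Lama4, Lamc1 and Nid2. Of 4 motifs searched on both strands, none contained in another, the GC box GGGCGG (in 35.7% of all promoters) occurred once in the Col4a1 window and 3 times in that of Col4a2. CCAAT (in 37.4%) occurred once in each of them. The Col15a1 window held none of these, nor GGAATG, a core of TEAD factor sites (in 14.7%), nor a CArG box, the site of serum response factor (in 1.6%). The CArG box had a match in the Lama2 window. GGAATG had 1 match in the Nid1 window and 2 in the second of the Col18a1 windows in the table. A match describes the letters only.

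Among the laminin chains, Lamb1, the beta chain of many laminins, differed little between groups. Its levels per kilobase were 116, 115 and 112 CPM in Ctrl, 130.4, 131 and 127 in CytoD, 123, 130.1 and 117.5 in CK, and 127, 129 and 124 in CytoD+CK. Every treated library lay above every Ctrl library. The rise with CytoD was 0.18 (SE 0.06, adjusted p = 0.0244), and it was lost in 9 of 21 alternatives, including each of the 6 that left out a Ctrl or CytoD library (adjusted p = 0.0554 to 0.11). With CK the difference was 0.11 (SE 0.06, adjusted p = 0.131), and 0.23 (adjusted p = 0.00871) with the gene length offset. With CytoD+CK it was 0.15 (SE 0.06, adjusted p = 0.0519), and it passed the threshold without CK replicate 2 (0.15, adjusted p = 0.0366) or CK replicate 3 (0.12, adjusted p = 0.0236).

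Lamc1, the gamma chain shared by most laminins, was called in none of the 7 comparisons by edgeR, where its lowest unadjusted p was 0.0733, nor by DESeq2, where its lowest adjusted p was 0.214. Its levels per kilobase were 83.0, 84.7 and 79.9 CPM in Ctrl, 74.6, 78.2 and 76.2 in CytoD, 91.8, 107 and 67.6 in CK, and 92.8, 92.9 and 84.7 in CytoD+CK. The CK libraries ran from the lowest to the highest of all 12, the lowest being CK replicate 3. CK against Ctrl was 0.11 (SE 0.12, adjusted p = 0.515), 0.23 (adjusted p = 0.0136) without CK replicate 3, 0.27 (adjusted p = 0.00248) with the gene length offset, and -0.05 (adjusted p = 0.727) without CK replicate 2. CytoD against Ctrl was -0.11 (SE 0.12, adjusted p = 0.508) although those groups did not overlap. CytoD+CK was above CytoD by 0.24 (SE 0.12, adjusted p = 0.164), and by 0.22 (adjusted p = 0.00886) in the fit without CK replicate 3, a library of neither group. CK was above CytoD by 0.22 (SE 0.12, adjusted p = 0.175), and by 0.35 (adjusted p = 0.00108) without that library.

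The alpha chains of the set were close to the limit of detection. Lama2, the alpha chain of muscle and Schwann cell laminin, had 12, 16 and 14 counts in Ctrl, 8, 24 and 32 in CytoD, 38, 16 and 26 in CK, and 34, 20 and 24 in CytoD+CK. All groups overlapped, and no comparison was called by edgeR, where the lowest unadjusted p was 0.132, or by DESeq2, where the lowest adjusted p was 0.232. CK against Ctrl was 0.78 (SE 0.49, adjusted p = 0.217). Lama4, the alpha chain of vessel and fat cell laminin, had 0, 6 and 4 counts in Ctrl, 2, 6 and 6 in CytoD, 0, 0 and 4 in CK, and 8, 12 and 14 in CytoD+CK. The CytoD+CK libraries lay above all the others, by a few counts. Without the filter its adjusted p ran from 0.123 to 0.897 over the 7 comparisons, so no change in Lama4 was detectable at this depth.

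The alpha chain RNA of these cells therefore came almost wholly from genes outside the set. Lama2 and Lama4 together made up 0.0773% to 0.691% of the summed alpha chain level per kilobase (Lama1 to Lama5) in any library, whereas Lamb1 made up 78.0% to 86.5% of the beta chain level and Lamc1 98.0% to 99.3% of the gamma chain level. The summed alpha level was 35.6 ± 2.88 CPM per kilobase in Ctrl (SD, n = 3), 26.1 ± 0.387 in CytoD, 13.97 ± 2.25 in CK and 14.1 ± 1.96 in CytoD+CK. Every Ctrl library lay above every CytoD library, and every CytoD library above every library that received CK666. The beta sum was 145 ± 1.78 in Ctrl, 156 ± 1.19 in CytoD, 144 ± 5.93 in CK and 147 ± 3.44 in CytoD+CK, with every CytoD library above every other. The gamma sum was 84.1 ± 2.51 in Ctrl, 77.2 ± 1.82 in CytoD, 89.7 ± 20.02 in CK and 91.2 ± 4.84 in CytoD+CK, with every CytoD library below every Ctrl library.

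**Figure D3:**
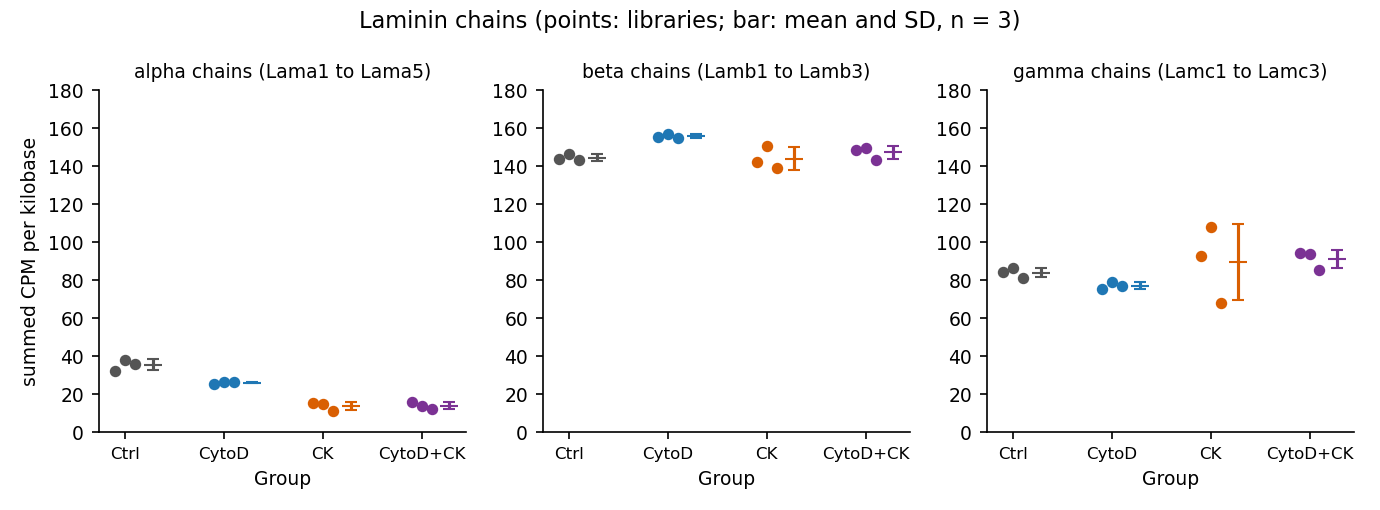
Summed level of the laminin alpha, beta and gamma chain genes in each library, as CPM per kilobase on a linear axis that starts at 0 in each panel. Points are libraries and bars the mean and SD of 3. The alpha sum steps down from Ctrl (35.6) to CytoD (26.1) to CK (13.97) and CytoD+CK (14.1), while the beta sum stays between 139 and 157 in every library.

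Lama5 and Lama1 carried the alpha sum. Lama5, the alpha chain of many adult laminins, was at 27.9 ± 3.32 CPM per kilobase in Ctrl, 17.8 ± 0.140 in CytoD and 10.8 ± 1.66 in CK. It fell with CytoD by a change of -0.65 (SE 0.13, adjusted p = 0.00209) and with CK by -1.37 (SE 0.14, adjusted p = 6.62e-06). Lama1, the alpha chain of embryonic laminin, was at 7.60 ± 0.480 in Ctrl, 8.22 ± 0.454 in CytoD and 3.07 ± 0.853 in CK, a CK change of -1.31 (SE 0.15, adjusted p = 1.75e-05). Of the 11 other collagen IV and laminin chains, all tested, CytoD raised 1 and lowered 2 (19.1% higher and 18.9% lower over all genes). CK raised 1 and lowered 6 (22.5% higher and 18.7% lower over all genes). Lamb3, a chain of epithelial laminin, was the 1 raised in both, from 0.0525 ± 0.00964 in Ctrl to 0.140 ± 0.0277 in CytoD and 0.225 ± 0.0667 in CK. The changes were 1.40 (SE 0.37, adjusted p = 0.0097) and 2.10 (SE 0.35, adjusted p = 0.000466). Lamb3 too was close to the limit of detection, at 0.213 CPM in Ctrl against 0.282 for Lama2. Col4a5, the most abundant collagen IV chain outside the set, went from 42.6 ± 2.04 in Ctrl to 26.2 ± 7.39 in CK, a change of -0.70 (SE 0.16, adjusted p = 0.00398), and was at 45.8 ± 2.14 in CytoD. Col4a1 and Col4a2 accounted for 90.6% to 97.2% of the collagen IV level in every library.

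Nid1 and Nid2, the linkers between laminin and collagen IV, parted. Nid2 was at 105, 104 and 101 CPM per kilobase in Ctrl, 108, 120.0 and 115 in CytoD, 42.8, 43.3 and 34.9 in CK, and 33.7, 44.3 and 42.0 in CytoD+CK. The 6 libraries with CK666 lay below 45 and the other 6 above 100, with no overlap. CK lowered Nid2 by a log2 change of -1.35 (SE 0.11, adjusted p = 8.76e-07), which is 2.56-fold lower, and CytoD+CK lowered it by -1.37 (SE 0.11, adjusted p = 3.99e-07). CytoD against Ctrl was 0.15 (SE 0.10, adjusted p = 0.287), although those groups did not overlap, as for 61.6% of all tested genes. Fitted on the compared groups alone it was 0.15 (adjusted p = 0.0158), where 56% of all genes were called. Adding CytoD to CK gave -0.01 (SE 0.10, adjusted p = 0.951), while CytoD+CK against CytoD was -1.51 (SE 0.11, adjusted p = 8.56e-07). The calls with CK666 held in all 21 alternatives of each of these comparisons.

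The Nid2 row, chr14:19751257-19811787, shares 386 bases at its end with the row 2700060E02Rik, which GENCODE places on the opposite strand. Whether counting used strand is not given in the sources used here, so reads in that stretch cannot be told apart. The neighbour had 6472 to 8500 counts in Ctrl and CytoD libraries and 7730 to 13956 in CK and CytoD+CK libraries. That was 24.3% to 31.7% of the Nid2 count in Ctrl and CytoD libraries and 70.7% to 128% in CK and CytoD+CK libraries. Its part in the Nid2 values was not tested.

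Nid1 levels per kilobase were 291, 271.5 and 261 CPM in Ctrl, 252, 255 and 253 in CytoD, 276, 297 and 173.5 in CK, and 266.5, 278 and 266 in CytoD+CK. CK replicate 3 was the lowest of all 12 libraries, and the other CK libraries lay within or above the Ctrl range. Nid1 was called in none of the 7 comparisons by edgeR, where its lowest unadjusted p was 0.271, nor by DESeq2, where its lowest adjusted p was 0.348. CK against Ctrl was -0.14 (SE 0.14, adjusted p = 0.461) with all libraries and 0.02 (adjusted p = 0.796) without CK replicate 3. CytoD against Ctrl, at -0.12 (SE 0.14, adjusted p = 0.564), passed the threshold in the fit without that library, at -0.13 (adjusted p = 0.0479). The Nid1 share of the summed nidogen level was 72.7% ± 0.726 in Ctrl (SD, n = 3), 68.9% ± 1.01 in CytoD, 85.7% ± 2.17 in CK and 87.1% ± 1.43 in CytoD+CK, with no library of the last pair of groups within the range of the first pair.

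**Figure D4:**
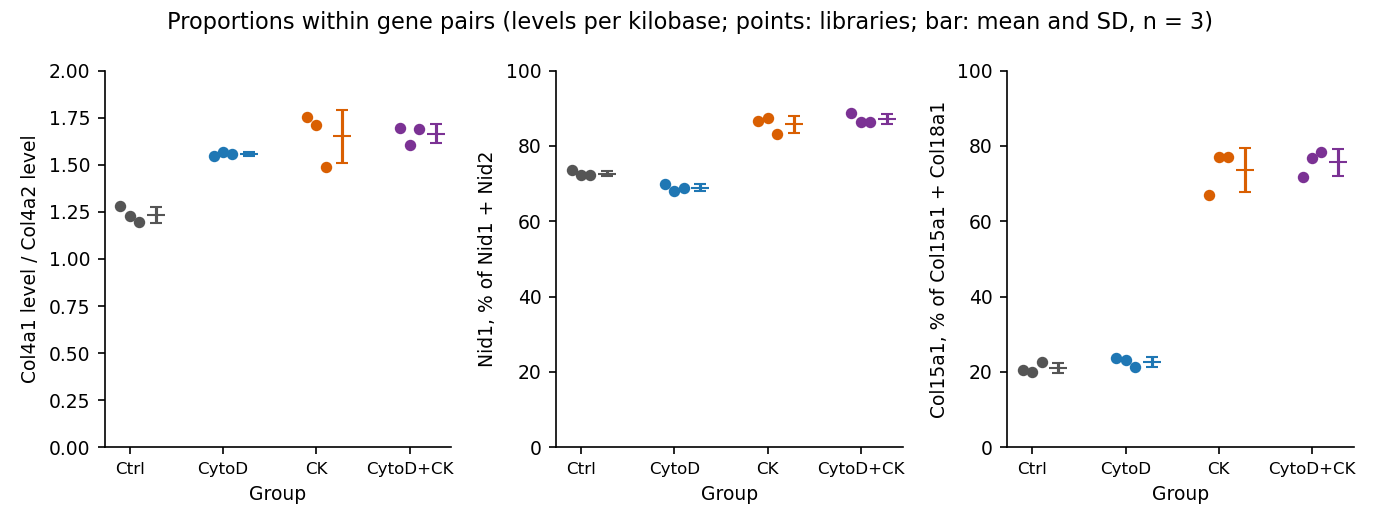
Proportions within 3 pairs of genes, computed from levels per kilobase in each library: the Col4a1 to Col4a2 ratio, the Nid1 share of both nidogens, and the Col15a1 share of both multiplexins. Points are libraries and bars the mean and SD of 3. The collagen IV ratio is above the Ctrl range in all 9 treated libraries, while the nidogen and multiplexin shares separate the 6 libraries that received CK666 from the other 6.

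Col15a1 had the largest change of the set. Its product, collagen XV, bridges fibres to the basement membrane, and its C-terminal fragment is known as restin. Levels per kilobase were 1.28, 1.08 and 1.26 CPM in Ctrl, 2.25, 2.11 and 1.82 in CytoD, 14.3, 23.3 and 23.0 in CK, and 17.5, 18.8 and 18.3 in CytoD+CK, from 272 to 356 counts in Ctrl and 3858 to 7820 in CK. Ctrl, CytoD and the libraries with CK666 formed 3 separate ranges. CK raised Col15a1 by 4.06 (SE 0.17, adjusted p = 9.72e-09), which is 16.7-fold, and CytoD+CK by 3.91 (SE 0.17, adjusted p = 8.23e-09), which is 15.1-fold. CytoD raised it by 0.77 (SE 0.16, adjusted p = 0.00259), which is 1.705-fold. These 3 calls held in all 21 alternatives of each comparison. CytoD+CK against CK was -0.15 (SE 0.15, adjusted p = 0.533), and -0.35 (adjusted p = 0.0332) without CK replicate 1, the lowest of the CK libraries.

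Col18a1 encodes collagen XVIII, the source of endostatin, and moved by less. Its levels per kilobase were 4.99, 4.30 and 4.29 CPM in Ctrl, 7.24, 6.98 and 6.75 in CytoD, 7.09, 6.96 and 6.88 in CK, and 6.95, 5.69 and 5.01 in CytoD+CK. Every treated library exceeded every Ctrl library, and the CytoD+CK libraries spread the widest. CytoD raised it by 0.63 (SE 0.10, adjusted p = 0.000415) and CK by 0.62 (SE 0.10, adjusted p = 0.000384), about 1.54-fold each. With CytoD+CK the rise was 0.38 (SE 0.10, adjusted p = 0.0087), a call lost without Ctrl replicate 3 (0.32, adjusted p = 0.0548). CytoD+CK against CytoD was -0.25 (SE 0.10, adjusted p = 0.083), and it passed the threshold without CytoD+CK replicate 1 (-0.38, adjusted p = 0.00696) or CK replicate 3 (-0.27, adjusted p = 0.0367) and in DESeq2 (-0.28, adjusted p = 0.0448). CytoD+CK against CK was -0.25 (SE 0.10, adjusted p = 0.131), -0.38 (adjusted p = 0.0153) without CytoD+CK replicate 1 and -0.37 (adjusted p = 0.0453) with the gene length offset. The Col15a1 share of the summed multiplexin level per kilobase was 21.1% ± 1.41 in Ctrl (SD, n = 3), 22.7% ± 1.31 in CytoD, 73.6% ± 5.85 in CK and 75.6% ± 3.55 in CytoD+CK. The pair thus changed rank: Col18a1 was the higher in all Ctrl and CytoD libraries and Col15a1 in all libraries with CK666.

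Whether the compounds acted additively on the log2 scale was tested as the interaction, the CytoD change in the presence of CK666 minus the CytoD change in its absence. It was called for 3 of the 9 genes, 1 higher and 2 lower, with 14.3% of all genes called, 6.63% higher and 7.67% lower. For Col18a1 it was -0.87 (SE 0.14, adjusted p = 0.00211), and this held in all 20 alternatives. The CytoD change of Col18a1 was 0.63 without CK666 and -0.25 with it. For Col15a1 it was -0.92 (SE 0.22, adjusted p = 0.0168), with CytoD changes of 0.77 and -0.15, and was lost without Ctrl replicate 2 (-0.85, adjusted p = 0.0523). For Col4a2 it was 0.39 (SE 0.10, adjusted p = 0.0245), with CytoD changes of -0.65 and -0.27, and was lost in 8 of 20 alternatives, to 0.26 (adjusted p = 0.248) with the gene length offset and at adjusted p = 0.0573 to 0.0696 without Ctrl replicate 2 or 3, CytoD replicate 2 or 3, or CytoD+CK replicate 1 or 2. Col4a1, at 0.06 (SE 0.11, adjusted p = 0.73), was not called, and the difference between the interactions of Col4a1 and Col4a2 was not tested.

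**Figure D5:**
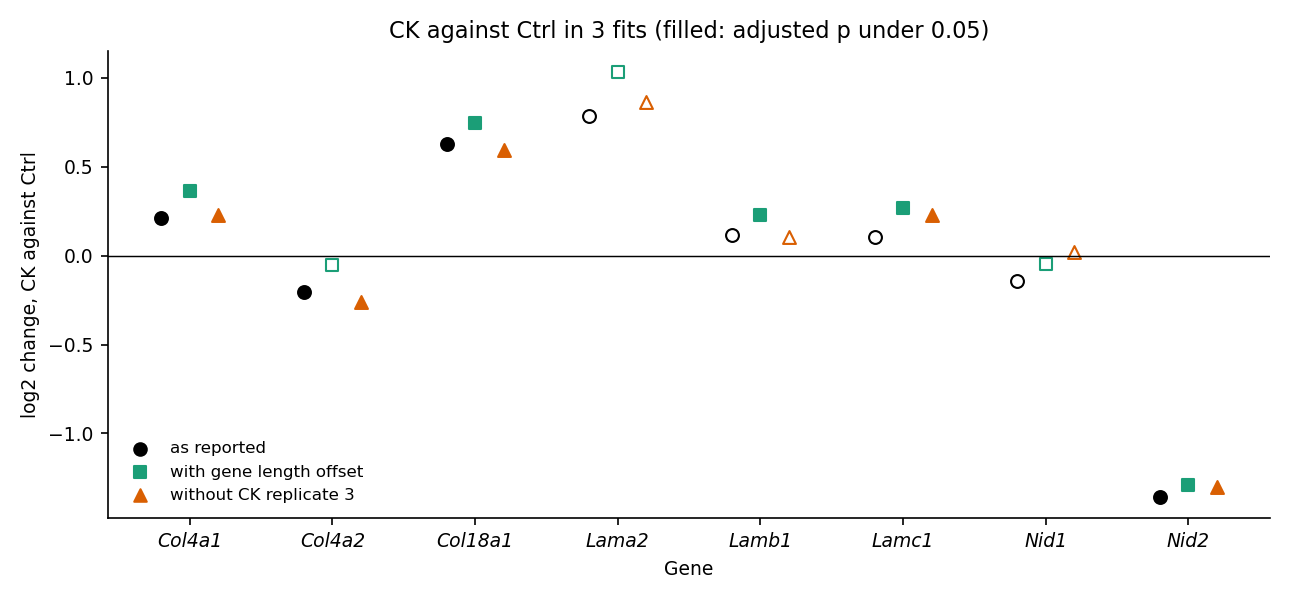
Log2 change of 8 tested genes with CK against Ctrl as reported (circles), with an offset for gene length (squares) and without CK replicate 3 (triangles); filled symbols have an adjusted p under 0.05, and Col15a1, near 4 in every fit, is left out. Col18a1 and Nid2 keep their call and direction in the 3 fits, with Col18a1 at 0.62, 0.75 and 0.59. Col4a2 moves from -0.21 to -0.05 with the length offset, and Lamc1 moves from 0.11 to 0.27 and 0.23.

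The genes that act on these proteins were counted from lists. Beside these, CytoD raised 19.1% and lowered 18.9% of all tested genes, and CK raised 22.5% and lowered 18.7%. The median log2 change over all tested genes was 0.02 with CytoD and 0.03 with CK. Without the third CK library the numbers called in each direction with CK were the same for each of these 4 lists and for the 11 other chains. The genes called were not all the same. Among receptors Sdc1 lost its call and Ddr2 gained one, and among assembly genes Loxl2 lost its call and Plod3 gained one. Of 11 tested proteoglycans and linkers (17 in the list), CytoD raised 2 and lowered 3, and CK lowered 7, with the other 4 not called. Smoc2, a calcium-binding basement membrane protein, fell with CytoD (log2 change -1.24, SE 0.12) and with CK (-1.67, SE 0.12), and Npnt, an integrin ligand, fell with CK (-2.26, SE 0.26). Agrn, a heparan sulfate proteoglycan, rose with CytoD by 0.65 (SE 0.12) and was at -0.10 (SE 0.12) with CK. Hspg2, which encodes perlecan, had a CK change of -0.35 (SE 0.12, adjusted p = 0.0332), or -0.33 (adjusted p = 0.0474) without the third CK library, and was not called with CytoD, at -0.18 (SE 0.12, adjusted p = 0.251). The median log2 change of the list was -0.18 with CytoD and -0.45 with CK.

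Of 16 receptors for laminin and collagen IV, all tested, CytoD raised 3 and lowered 5, and CK raised 2 and lowered 8, with list medians of -0.21 and -0.46. Itgb1, the beta subunit common to these integrins, fell with CytoD (log2 change -0.42, SE 0.05) and with CK (-0.94, SE 0.06). Itga3, a laminin-binding alpha subunit, fell in both (-1.13, SE 0.12, and -1.76, SE 0.12). Itga6, another one, rose with CK by 1.57 (SE 0.21) and was at 0.31 (SE 0.21, adjusted p = 0.274) with CytoD. Itga1, a collagen IV-binding subunit, rose with CytoD by 2.35 (SE 0.37). Receptor subunits with the same kind of ligand thus did not move one way.

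Of 16 tested genes for collagen assembly, glycosylation and export (17 in the list), CytoD raised 2 and lowered 8, and CK raised 1 and lowered 11, with list medians of -0.25 and -0.47. P4ha2, a subunit of collagen prolyl 4-hydroxylase, fell with CytoD (log2 change -0.80, SE 0.08) and with CK (-0.97, SE 0.08). Serpinh1, the collagen chaperone, fell in both (-0.24, SE 0.08, and -0.47, SE 0.08). Plod2, a lysyl hydroxylase, rose by 0.46 (SE 0.13) and 0.39 (SE 0.13). Leprel1, the older symbol of P3h2, whose enzyme hydroxylates collagen IV at proline, rose with CytoD by 0.58 (SE 0.19) and fell with CK (-1.94, SE 0.21). Mia3, which serves the export of large collagens, was called in neither comparison, with a CK difference of -0.11 (SE 0.08, adjusted p = 0.289).

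Of 14 tested proteases and inhibitors that act on basement membranes (18 in the list), CytoD raised 4 and lowered 4, and CK raised 3 and lowered 6. Timp1, an inhibitor of metalloproteinases, fell with CytoD (log2 change -1.30, SE 0.20) and with CK (-1.30, SE 0.20). Adamts1, a metalloprotease, fell in both (-0.45, SE 0.12, and -2.27, SE 0.12). Mmp11 rose by 0.97 (SE 0.07) and 0.68 (SE 0.07). Mmp2, a gelatinase that cleaves collagen IV, rose with CytoD by 0.34 (SE 0.10) and fell with CK (-0.55, adjusted p = 0.000781). The list median was -0.18 with CytoD and -0.40 with CK, and -0.11 with CK without the third CK library.

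Markers of cell types that make basement membranes were read in the same libraries. The summed level of 10 adipocyte markers was 3506 to 4163 CPM in Ctrl, 8621 to 8927 in CytoD, 7767 to 9990 in CK and 9667 to 12070 in CytoD+CK, and all 10 were called higher in each treatment against Ctrl, with median log2 changes of 2.32, 4.68 and 5.24. Lpl made up most of this sum, at 3095 CPM in Ctrl, 7412 in CytoD, 5886 in CK and 7424 in CytoD+CK. In CK against CytoD, 9 of the 10 were called higher and 1 lower, where 22.9% of all genes were higher and 16.8% lower. Col15a1 and Col18a1 were likewise called higher in every treated group. With CytoD, CK and CytoD+CK the rises were 0.77, 4.06 and 3.91 for Col15a1 and 0.63, 0.62 and 0.38 for Col18a1. The part of the adipocyte markers in those results was not tested. Of 10 endothelial markers 3 were tested, Emcn and Cldn5 were at 0 in every library, and the sum was 4.07 to 6.77 CPM. Of 9 macrophage and leukocyte markers found, 4 were tested, Ptprc and Emr1 were at 0 in every library, and the sum was 6.97 to 13.1 CPM. The sum of 7 epithelial markers, none of them tested, did not exceed 0.333 CPM, and that of 6 Schwann cell markers was 2.93 to 8.14 CPM. Markers of pericytes and smooth muscle, 7 of 8 tested, summed to 3180 to 3295 CPM in Ctrl and 497 to 955 in the treated groups, and most of this sum was Acta2, the actin of smooth muscle (3042 CPM in Ctrl). Acta2 fell with CytoD (log2 change -2.61, SE 0.12) and with CK (-2.12, SE 0.12), and the list medians were 0.38 and 0.47. Of the 7 tested, CytoD raised 1, Abcc9, by 2.04 (SE 0.73, adjusted p = 0.0421), and lowered 1, Acta2. CK raised 1, Mcam, by 3.77 (SE 0.43), and lowered 3. Besides Acta2, these were Rgs5 (-1.19, SE 0.41, adjusted p = 0.0353) and Notch3 (-0.46, SE 0.13, adjusted p = 0.0114). Rgs5 was not called without the third CK library (adjusted p = 0.091). Abcc9 was at 0.0407 to 0.188 CPM in Ctrl, where the limit set for a count of 0 was 0.0564 to 0.0634 CPM. Of the 12 marrow stromal markers 11 were tested, and Thy1 was at or near the limit of a count of 0. They summed to 9302 to 13260 CPM in Ctrl, 20350 to 23140 in CytoD, 6857 to 9002 in CK and 7696 to 7913 in CytoD+CK. Cxcl12 made up most of the sum, at 8331 CPM in Ctrl and 18050 in CytoD. Of the 11 tested, CytoD raised 5 and lowered 2, where 19.1% of all genes were higher and 18.9% lower. Kitl (1.76) and Vcam1 (1.23) were among those raised, and Ly6a (-1.56) and Cd44 (-0.88) were those lowered. With CK, 2 were higher and 5 lower, where 22.5% of all genes were higher and 18.7% lower.

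The genes most like each member over the 12 libraries were found by the Euclidean distance between log2 CPM values centred on each gene's mean, among all other tested genes. The nearest to Col4a1 were Mink1 (0.215), Cisd2 (0.232), Limk2 (0.259), Tbc1d22a (0.263) and Zfp142 (0.264). Its nearest fellow member, Lamc1, came at rank 917, and Col4a1 was at rank 810 for Col4a2, whose nearest gene was Srebf2 (0.246). The nearest to Nid2 was Adm (0.485), with Lama1 at the fifth place (0.561), and the nearest to Col15a1 was Agpat9 (1.12). The nearest genes were Apobec1 for Col18a1 (0.367), Efnb3 for Lama2 (1.09), Ick for Lamb1 (0.0902), Wdr7 for Lamc1 (0.193) and Efr3a for Nid1 (0.144). The closest pair within the set was Lamc1 and Nid1 (0.433), genes whose widest spread was in the CK libraries. A short distance also comes from a flat pattern, so distances are not comparable between genes that changed and genes that did not.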

How the data were processed

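Mouse RNA was sequenced in 12 libraries, 3 in each of 4 groups taken from the sample titles. The deposited table gives, per the file headers, the count of reads per gene and an RPKM value that the authors computed from it, with a coding length for each gene. Tools named in the submitters' processing notes are TopHat, HTSeq and CASAVA 1.9, and the build named is hg19, which is human, while symbols and coordinates match mouse GRCm38. Every count was even in all 23358 rows, so halved counts were also tried. The RPKM values were not used further, and all per-sample columns were mapped.

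Counts were analysed as deposited in edgeR 4.0.16 under R 4.3.3. The filterByExpr step (minimum count 10) kept 13534 rows. After TMM scaling, all 12 libraries entered 1 quasi-likelihood fit with group means (common biological coefficient of variation 0.115). Tests were 2-sided, adjusted by Benjamini and Hochberg within each of 7 comparisons, with no adjustment across comparisons, and a gene was called at an adjusted p under 0.05. The SE is the log2 change divided by the square root of F. Levels are TMM-scaled CPM. The method was tested on simulated data. The upper limit behind a count of 0 was set at 3 counts, which is 0.0423 to 0.0634 CPM and covers counting error only. It takes each count as a separate event. Every count was even, and if reads were counted in pairs this limit is too low.

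The basement membrane genes and all gene lists were chosen with earlier results of these data known, so lists are described by counts and medians without a set test. Every basement membrane gene is named. From each other list up to 3 called genes per direction with the largest changes with CytoD and with CK could be named, of which those printed are part, and Itgb1, Serpinh1, Hspg2, Mia3, Col4a5, Cxcl12 and Thy1 were named after their values were seen. Libraries of a group differed by more than sampling noise (chi-square per degree of freedom at least 11.4). Alternatives were RLE size factors, no filter, DESeq2 1.42.0, halved counts, removal of the ribosomal RNA row Rn45s (1.86% to 4.52% of counts), an offset for gene length (a lowess trend of each library on log2 length, span 0.3), a replicate block, block and length offset together, fits on the compared groups alone, and each library left out in turn. The fit of the other lists without CK replicate 3 was added after seeing the data.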

Additional observations from a re-analysis of the deposited data

Results flagged for a closer look

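The interaction was called for 3 of the 9 tested genes, with 14.3% of all genes called: by this test the change with CytoD differed between cells with and without CK666. Without Ctrl replicate 2 only Col18a1 was called, and the Col4a2 call was lost in 8 of 20 alternatives. The log2 difference was 0.39 for Col4a2 (adjusted p = 0.0245), -0.92 for Col15a1 (adjusted p = 0.0168) and -0.87 for Col18a1 (adjusted p = 0.00211, edgeR's quasi-likelihood test). For Col18a1 the mean CytoD+CK level per kilobase, 5.88 ± 0.982 CPM (SD, n = 3), lay between Ctrl (4.53 ± 0.399) and either compound alone (6.99 ± 0.244 and 6.98 ± 0.105). The CytoD+CK libraries overlapped those of each compound alone. Neither difference was called (adjusted p = 0.083 against CytoD and 0.131 against CK).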

How the results depend on the processing

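Of the fits for the 9 tested genes under all alternatives, 1196 kept their direction and their side of the threshold, 57 lost the call, 29 gained one and 32 changed sign. The proportions within gene pairs moved by less than the SD between replicates in all 60 alternatives. Most of these left out 1 library of a group of 3, which cannot move a mean by as much as that SD. Only those with the gene length offset could have moved further. Fitted on the compared groups alone, 8 genes were called with CytoD against Ctrl (56% of all genes), 3 with CK against Ctrl (30.7%) and 0 between CytoD+CK and CK (3.51%) in edgeR, where 2 had an unadjusted p under 0.05 and where DESeq2 on all libraries called both collagen IV chains. Leaving out 1 library moved the number of genes called to between 3 and 6 with CK against Ctrl, 2 and 5 for CytoD+CK against CytoD, 0 and 3 for CytoD+CK against CK, and 1 and 3 for the interaction. The lowest values came without Ctrl replicate 2 or 3 for CK against Ctrl, without Ctrl replicate 2 or 3, CK replicate 2 or CytoD+CK replicate 2 or 3 for CytoD+CK against CK (where 2 or 3 genes then had an unadjusted p under 0.05 in edgeR), and without Ctrl replicate 2 for the interaction.

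Signs changed with the gene length offset, alone and with the replicate block, for CytoD+CK against CK in Lamb1 (-0.087 and -0.0858) and Lamc1 (-0.13 and -0.135), for CK against CytoD in Col18a1 (0.14 and 0.14), Lamb1 (0.072 and 0.0708) and Nid1 (0.0951 and 0.0889), and for the interaction in Col4a1 (-0.0566 and -0.0567). Leaving out 1 library spanned a sign change, none of it in a called result, for Lamc1 (-0.0499 to 0.23) and Nid1 (-0.29 to 0.0205) with CK against Ctrl and Col4a1 (-0.0903 to 0.0025) with CytoD+CK against Ctrl. For CytoD+CK against CytoD it did so in Lama2 (-0.15 to 0.60). For CytoD+CK against CK it did so in Lama2 (-0.47 to 0.28), Lamc1 (-0.13 to 0.18), Nid1 (-0.0706 to 0.27) and Nid2 (-0.0928 to 0.097). For CK against CytoD it did so in Col18a1 (-0.0265 to 0.0243), Lama2 (-0.0952 to 0.74) and Nid1 (-0.17 to 0.15), and for the interaction in Lamc1 (-0.006 to 0.29). Without CK replicate 3, signs changed for Lamc1 (-0.13) and Nid1 (-0.0706) in CytoD+CK against CK, Nid1 in CK against CytoD (0.15) and Lamc1 in the interaction (-0.006). In the added fit of the other lists without that library, with CK against Ctrl, 9 uncalled genes changed sign: Col4a3 (0.0828), Col4a4 (0.37), Col4a6 (-0.35), Itga2 (0.19), Timp3 (0.0736), Hpse (0.29), Pdgfra (0.13), Lepr (-0.0422) and Lyz2 (-0.28), while 4 lost the call, 2 gained one and 91 did neither. The causes were not tested.

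The replicate block kept 61 of 63 results and brought Lamb1 with CytoD+CK against Ctrl (0.15, adjusted p = 0.0458) and Col18a1 with CytoD+CK against CytoD (-0.26, adjusted p = 0.0335) past the threshold. The labels do not say whether replicate numbers pair the libraries. Deviations from group means correlated at -0.0789 to 0.256 between libraries of the same number (median 0.0704), over 0.1 in 4 of 18 pairs. Between libraries of different numbers they correlated at -0.1843 to 0.1739 (median -0.0343), over 0.1 in 3 of 36 pairs. Of the 12 libraries, 8 correlated best with their own number. A pairing by number is therefore possible, and the block is given as an alternative. Over all genes the block changed the calls between CytoD+CK and CK from 1570 to 1726. That count fell to 459 with the compared groups alone, to 778 and 745 without CytoD+CK replicate 2 or 3, and rose to 2563 without CK replicate 2 and to 2413 with block and length offset. CK against CytoD went from 5380 to 3558 with the compared groups alone. The interaction went from 1935 to 3019 with block and length offset, to 3396 without CK replicate 3, and to between 1094 and 1115 without Ctrl replicate 2 or 3 or CytoD replicate 2 or 3. Depth limits Lama2 and Lama4, which had at most 38 and 14 counts.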
